A study of Mus musculus with 6 samples.

Results

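The splicing factors and RNA helicases are the 68 genes, of 4162 in the deposited count table, whose symbol begins with 1 of 15 family prefixes: Srsf, Snrn, Snrp, Sf3, Prpf, Hnrnp, Rbm followed by a digit or x, Lsm followed by a digit, Cpsf, Cstf, Celf, Mbnl, Ddx, Dhx and Luc7l. No Luc7l gene was among them. The rule reads symbols only, but it was set with earlier results of these data known. It also reaches only genes that are in the count table. Expression was measured by RNA sequencing in CD4+ T cells of 3 UTX TCD mice and 3 WT mice, with 3 libraries a genotype. By the design text, UTX TCD mice lack UTX in their T cells, UTX being a demethylase of histone H3K27 and the product of Kdm6a, and both genotypes are on the B6 background. What drives the deletion, which exons it removes, and the age and sex of the mice are not stated in the labels or design text. In both genotypes the cells were isolated from spleen as naive CD4+ T cells with a magnetic kit and stimulated for 48 h with anti-CD3 on the plate and soluble anti-CD28.

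Pre-mRNA splicing is carried out by the spliceosome, which is built from the U1, U2, U4, U5 and U6 small nuclear ribonucleoproteins (snRNPs). Each snRNP is an RNA in a ring of Sm or LSm proteins with proteins of its own. SR and hnRNP proteins bind pre-mRNA and steer which splice sites are used, and T cells change the splicing of many genes on activation, Ptprc (CD45) being the textbook case. DEAD-box (Ddx) and DEAH-box (Dhx) helicases use ATP to remodel RNA and RNA-protein complexes. Different members serve the spliceosome, ribosome assembly, mRNA export, translation or the sensing of viral RNA.

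Most members had values a little below WT in UTX TCD cells, few of them past the test, and a small number were higher, some of them several-fold. At an edgeR adjusted p under 0.05, 8 of the 68 members were higher, 17 were lower and 43 did not pass. Over all 4118 genes tested, 41.1% were higher and 27.0% lower, against 11.8% and 25% of the members, so the share of lower members was near that of the whole table. The falls were small, between -0.24 and -0.75 on the log2 scale for the lower members, and no member fell by 2-fold. Rises at or above 2-fold numbered 5. In bulk RNA, a lower count from fewer cells of a kind and from less RNA per cell cannot be told apart.

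The count table used here holds part of the transcriptome, and genes with little difference between genotypes are nearly missing from it. No label states how its genes were chosen. Only 20 of its 4118 tested genes had a log2 fold change within 0.1 of 0. A value below 0 was found for 59 members (86.8%), against 53.5% of all genes tested, and upper-quartile scaling moved Rbm26 alone among them above 0. The median log2 fold change was -0.24 over the members and -0.15 over all genes. Restricted to genes below 0, the members' median of -0.26 was nearer to 0 than the -0.32 of the whole table. Libraries of the genotypes did not overlap in 59 members (86.8%, against 85.8% of all genes), and UTX TCD was the lower side in 51 of the 68 members, against 44.0% of all genes. Other genes of these families, such as Srsf1, Hnrnpl, Mbnl1, Celf2, Ddx5 and Dhx9, were not analysed here.

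**Figure D1:**
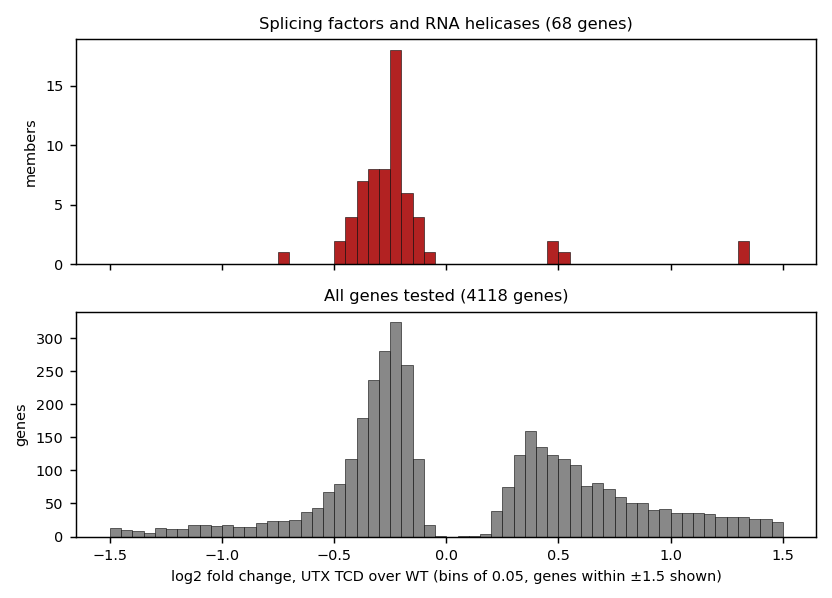
Histograms of the log2 fold change, UTX TCD over WT, in bins of 0.05 for the 68 members (upper panel) and for all 4118 genes tested (lower panel); 4 members and 428 genes lie outside the range of ±1.5 shown. The region around 0 is nearly empty in the whole table, and 58 of the 68 members lie between 0 and -0.5.

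Libraries were alike in size, with column totals of 8363326 to 9497542 counts in UTX TCD and 8823939 to 10288306 counts in WT, taken over the listed genes. Levels are CPM, read counts relative to the total over the listed genes after TMM scaling, and 3 values in a row are replicates 1, 2 and 3. Kdm6a had 188, 207 and 179 CPM in UTX TCD libraries, against 286, 281 and 281 CPM in WT libraries (-0.56 ± 0.09 on the log2 scale, adjusted p = 0.0029), with no overlap. Its mean changed by -32.4%, so most of the gene's reads were still present in UTX TCD libraries, and since the deleted exons are not stated the counts do not show by themselves that the product is lost. Among UTX TCD libraries replicate 2 lay away from the other pair, and the biological coefficient of variation came to 22.3% for UTX TCD and 8.01% for WT. Of 10 markers of CD4 T cells the table held Cd2, Thy1, Lck and Cd28, summing to 3994 to 4966 CPM in UTX TCD and 3705 to 3962 CPM in WT libraries, while Cd3e and Cd4 were not analysed here. The 4 did not move together. Cd2, an adhesion receptor of T cells, was higher, with a mean of 1186 CPM in UTX TCD and 553 CPM in WT (1.10 on the log2 scale, adjusted p = 0.0078), and so was the costimulatory receptor Cd28, with 1747 CPM in UTX TCD and 982 CPM in WT (0.83, adjusted p = 0.0020). The kinase gene Lck did not pass (-0.13, adjusted p = 0.12). Thy1, a pan-T-cell surface marker, was lower (-3.83, adjusted p = 0.00019), at 42.9, 77.6 and 49.9 CPM in UTX TCD libraries, against 887, 718 and 819.9 CPM in WT libraries. Cd8b1, a chain of the CD8 coreceptor, was higher at 31.5 to 56.2 CPM in UTX TCD, against 11.6 to 14.5 CPM in WT. The B cell gene Ighm summed to 471 to 759 CPM in UTX TCD and 431 to 527 CPM in WT. Eomes, the only listed NK cell marker with a row, had 22.9 to 49.1 CPM in UTX TCD and 21.9 to 57.6 CPM in WT. Its level alone does not measure NK cells. The part of these cell types in the results was not tested, and markers of myeloid, dendritic and erythroid cells were not analysed here.

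The members together took 3.25%, 2.60% and 3.15% of the column total in UTX TCD libraries and 3.56%, 3.54% and 3.58% in WT libraries. These shares use no TMM scaling, but they are relative to the total of the listed genes and so also depend on the other genes. The groups did not overlap. UTX TCD replicate 2 was the lowest of the 6 libraries in 56 of the 59 members below 0, UTX TCD replicate 3 in the other 3. The median log2 ratio of those members to their WT mean was -0.14, -0.49 and -0.18 in UTX TCD replicates 1, 2 and 3, which describes genes chosen for being below 0. Over all members it was -0.13, -0.47 and -0.16, where all genes gave -0.06, -0.14 and -0.10. Without UTX TCD replicate 2 the members' median log2 fold change was -0.14, the 8 higher members were the same genes, and 34 were lower, the 17 among them, against 35.3% of all genes lower and 38.8% higher.

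Counts of lower members changed with the libraries used and with the scaling. With 1 WT library left out, 0, 0 and 1 members were lower (without replicate 1, 2 and 3), where 9.69%, 8.47% and 13.1% of all genes were. Higher members then numbered 5, 5 and 6, against 19.6%, 17.6% and 28.8% of all genes. The members' median log2 fold change was -0.23, -0.25 and -0.26 in these 3 fits, against -0.24 with all libraries. Without UTX TCD replicate 1, 31 members were lower and 9 higher (34.5% and 44.0% of all genes). Without UTX TCD replicate 3 there were 14 lower and 9 higher (22.4% and 36.0%). Upper-quartile scaling gave 10 lower members (17.6% of all genes) and a scaling that puts the empty region of the fold changes at 0 gave 31 (37.6%), each with 8 higher. Of the 17 lower members, 16 lost their call when any 1 WT library was left out, and Ddx56 did so without WT replicates 1 and 2 but not without WT replicate 3. Each value below 0 remained below 0 with any library left out.

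**Figure D2:**
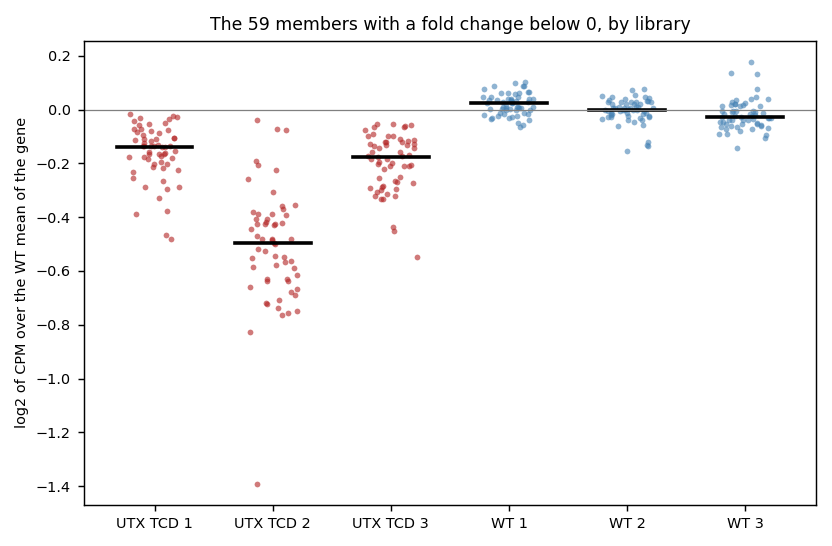
Log2 ratio of each member's CPM to its WT mean, for the 59 members with a fold change below 0, by library; each point is a gene and the black line is the median. UTX TCD replicate 2 has the lowest median, -0.49, and replicates 1 and 3 of UTX TCD lie at -0.14 and -0.18, all below the WT libraries.

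**Figure D3:**
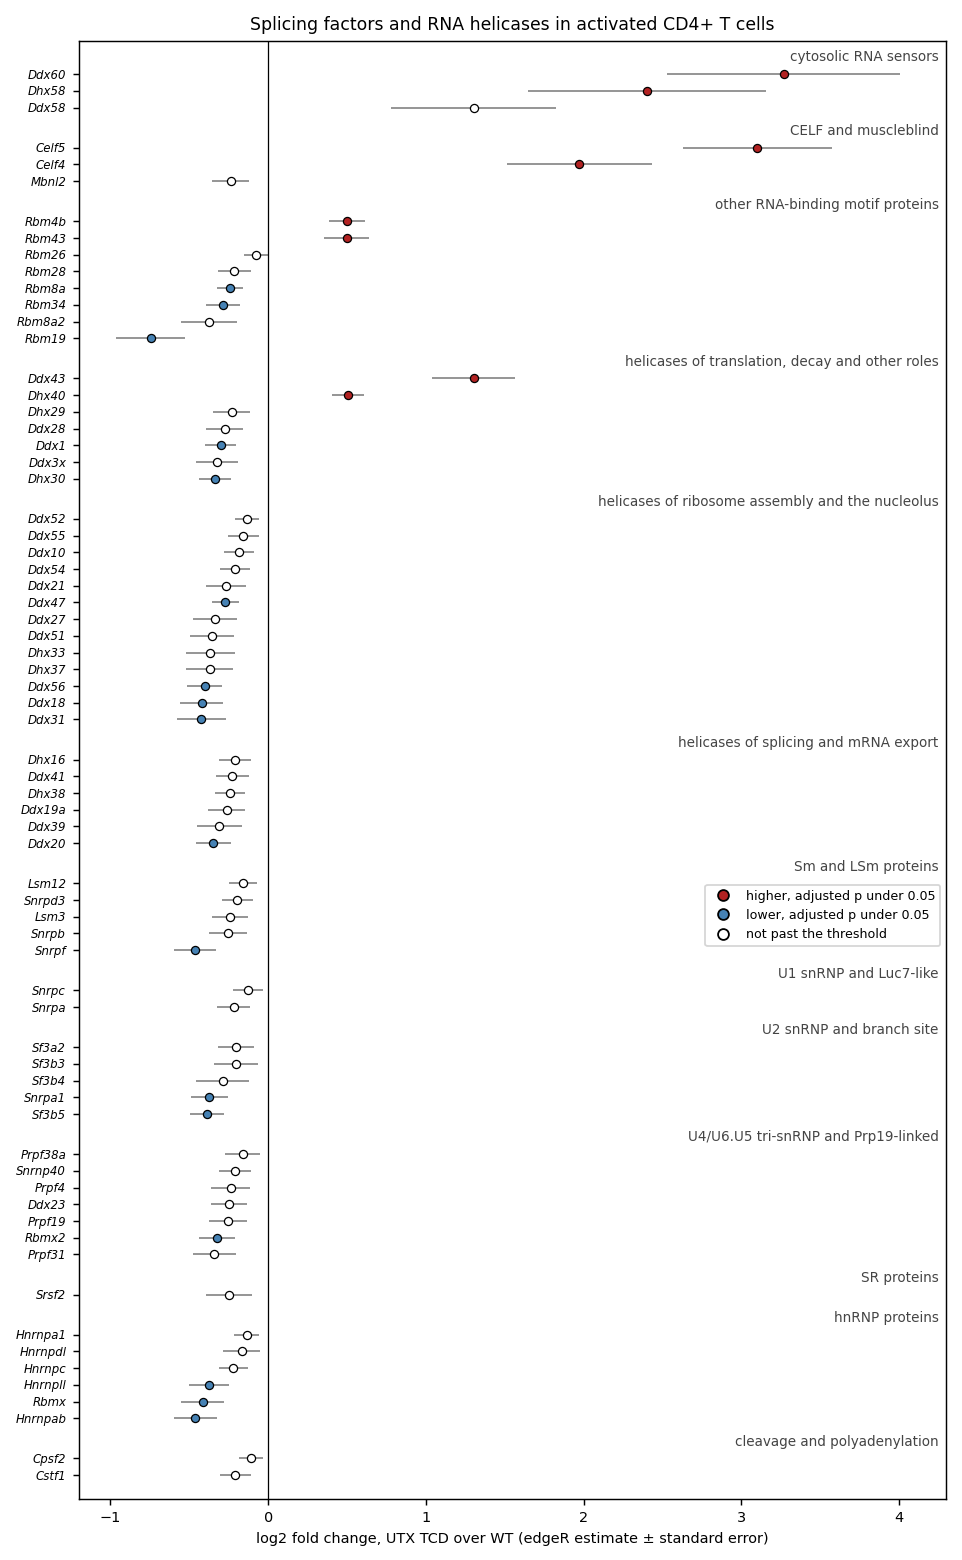
Log2 fold change, UTX TCD over WT, with its standard error for all 68 members by role, 3 libraries a genotype; filled points passed an adjusted p of 0.05. The 8 higher members belong to the RNA sensors, CELF proteins, other RNA-binding motif proteins and helicases of other roles, and every spliceosome, hnRNP and ribosome assembly member lies below 0.

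Of the 3 cytosolic RNA sensors, 2 rose, by far the most in 1 library, where 41.1% of all genes tested were higher. Ddx58 encodes RIG-I, which detects viral RNA and starts interferon signalling, Dhx58 encodes its relative LGP2, and Ddx60 is an interferon-induced helicase of the same antiviral response. Ddx60 (chromosome 8, 61928087 to 62038244, GRCm38) had 5.30, 31.6 and 7.92 CPM in UTX TCD libraries, against 1.09, 1.30 and 2.27 CPM in WT libraries. Dhx58 (chromosome 11, 100694884 to 100704271) had 14.0, 104 and 17.3 CPM in UTX TCD and 10.5, 6.83 and 8.17 CPM in WT libraries. Ddx58 (chromosome 4, 40203773 to 40239828) had 23.4, 116 and 38.5 CPM in UTX TCD and 25.0, 22.9 and 24.3 CPM in WT libraries. UTX TCD replicate 2 was the highest library for all 3 genes, and the groups overlapped only for Ddx58. The log2 fold change was 3.27 ± 0.74 for Ddx60 (edgeR adjusted p = 0.010) and 2.40 ± 0.76 for Dhx58 (adjusted p = 0.027), while Ddx58 did not pass at 1.30 ± 0.52 (adjusted p = 0.054). Without UTX TCD replicate 2 these values were 2.09, 0.87 and 0.36, with adjusted p = 0.0054, 0.018 and 0.15. The Dhx58 call was lost without WT replicate 1, 2 or 3 (adjusted p = 0.065, 0.084 and 0.072), with limma-voom (log2 fold change 1.83, adjusted p = 0.090) and with the replicate block (1.78, adjusted p = 0.054). Ddx58 passed without UTX TCD replicate 1 (1.69, adjusted p = 0.015) or UTX TCD replicate 3 (1.53, adjusted p = 0.049). Exons of Dhx58 overlap Dhx58os on the other strand, and no label states whether the counting used strand. In all, 21 members have exons under a gene on the other strand and 5 under another gene on the same strand.

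Promoter windows of 300 bases, 250 before to 50 after the start site, were read from RefSeq (GRCm38.p6) for 55 of the 68 members, and those with the letters GAAANNGAAA are shown because interferon-response elements are known by such repeats. Capitals mark the letters on either strand, overlapping matches run together.
Ddx60 (chr8:61927837-61928136, plus strand): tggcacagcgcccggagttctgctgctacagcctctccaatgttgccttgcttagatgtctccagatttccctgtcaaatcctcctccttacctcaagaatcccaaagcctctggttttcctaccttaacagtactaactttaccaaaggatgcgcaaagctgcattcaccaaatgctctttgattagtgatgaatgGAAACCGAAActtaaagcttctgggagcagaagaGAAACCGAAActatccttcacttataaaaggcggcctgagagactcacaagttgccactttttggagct
Ddx58 (chr4:40239776-40240075, minus strand): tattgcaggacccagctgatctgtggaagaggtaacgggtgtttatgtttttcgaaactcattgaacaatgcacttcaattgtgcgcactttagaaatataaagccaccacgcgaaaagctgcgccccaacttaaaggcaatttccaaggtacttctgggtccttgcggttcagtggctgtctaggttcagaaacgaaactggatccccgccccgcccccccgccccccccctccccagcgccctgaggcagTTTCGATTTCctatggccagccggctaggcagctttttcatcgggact
Rbm43 (chr2:51935114-51935413, minus strand): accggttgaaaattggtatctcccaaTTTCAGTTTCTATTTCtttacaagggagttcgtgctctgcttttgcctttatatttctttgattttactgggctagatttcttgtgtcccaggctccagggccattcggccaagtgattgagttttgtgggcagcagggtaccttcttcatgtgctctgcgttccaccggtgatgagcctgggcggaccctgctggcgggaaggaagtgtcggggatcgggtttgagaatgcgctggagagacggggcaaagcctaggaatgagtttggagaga
Rbm28 (chr6:29164675-29164974, minus strand): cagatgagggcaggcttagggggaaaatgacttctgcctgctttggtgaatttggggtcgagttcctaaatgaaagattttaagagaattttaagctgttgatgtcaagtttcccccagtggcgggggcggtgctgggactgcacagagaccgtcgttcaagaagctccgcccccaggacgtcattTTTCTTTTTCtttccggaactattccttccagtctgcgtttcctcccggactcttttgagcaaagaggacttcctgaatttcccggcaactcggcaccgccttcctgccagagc

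Matches begin at positions -53 and -19 relative to the start site in Ddx60, at -224 and -218 in Rbm43, at -64 in Rbm28 and 2 bases past it in Ddx58. The letters occurred in 4 of the 55 members (7.27%) and in 4.6% of the table's genes with a window. Counted by window, they were in 6.35% of the members' 63 windows and in 3.44% of all 32851 windows. Of these 4 genes, Ddx60 and Rbm43 were higher in UTX TCD cells, where 41.1% of all genes tested were higher. Ddx58, above 0, and Rbm28, below 0, did not pass. Members without a window could not be read for the letters.

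CELF and muscleblind proteins bind pre-mRNA and regulate alternative splicing against each other in muscle and brain. Celf4 and Celf5, which are best known from the nervous system, were higher in UTX TCD cells, from very few reads. Celf5 (chromosome 10, 81459227 to 81482709) had 38, 60 and 31 counts in UTX TCD libraries, against 3, 5 and 7 counts in WT libraries, or 4.58, 6.34 and 3.23 CPM in UTX TCD and 0.297, 0.542 and 0.795 CPM in WT. Celf4 (chromosome 18, 25477632 to 25754157) had 27, 42 and 20 counts in UTX TCD and 6, 11 and 6 counts in WT libraries. The groups did not overlap for either gene. Log2 fold changes were 3.10 ± 0.47 for Celf5 (edgeR adjusted p = 0.0030) and 1.97 ± 0.46 for Celf4 (adjusted p = 0.011), and that of Celf4 was not called without WT replicate 1 (adjusted p = 0.051). Exons of Celf5 overlap Gm16105 on the other strand. Mbnl2 did not pass at -0.24 ± 0.12, with overlapping groups. Per kilobase of exon, Celf4 and Celf5 had the lowest levels of all members, 0.38 and 0.71 CPM per kb in UTX TCD and 0.096 and 0.082 CPM per kb in WT.

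**Figure D4:**
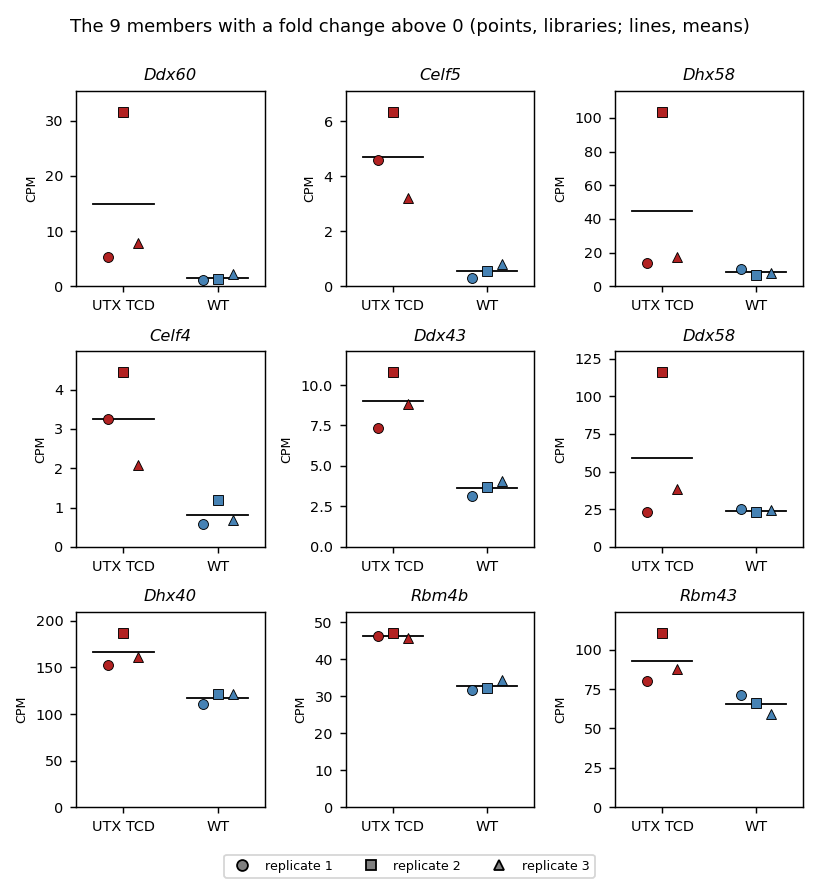
CPM by library for the 9 members with a fold change above 0, UTX TCD on the left of each panel and WT on the right, each axis starting at 0; lines are means of 3 libraries. UTX TCD replicate 2 is the highest of the 6 libraries in all 9, far above the others for Ddx60, Dhx58 and Ddx58. Only Ddx58 has overlapping groups, where 85.8% of all genes tested have no overlap.

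Other RNA-binding motif proteins went both ways, with 2 of 8 members higher and 3 lower, against 41.1% and 27.0% of all genes tested. Rbm4b, a paralog of the splicing regulator Rbm4, had 46.3, 47.1 and 45.7 CPM in UTX TCD libraries, against 31.8, 32.3 and 34.3 CPM in WT libraries (0.50 ± 0.12 on the log2 scale, edgeR adjusted p = 0.011). Its UTX TCD libraries lay closer together than those of any other higher member, and its exons overlap Gm37206 on the other strand. Rbm43 had 79.9, 111 and 87.6 CPM in UTX TCD and 71.1, 66.4 and 59.4 CPM in WT libraries (0.50 ± 0.14, adjusted p = 0.021), with replicate 2 highest among UTX TCD. Neither call held throughout: Rbm4b lost it without WT replicate 1 or 2 (adjusted p = 0.057 and 0.058) and Rbm43 without WT replicate 2 or 3 (adjusted p = 0.068 and 0.068). Rbm43 was 0.34 without UTX TCD replicate 2.

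The largest fall among all members was that of Rbm19, whose yeast counterpart Mrd1 acts in assembly of the small ribosomal subunit. Rbm19 (chromosome 5, 120116465 to 120198981, ENSMUSG00000029594) had 187, 98.4 and 176 CPM in UTX TCD libraries, against 265, 258 and 252 CPM in WT libraries. All 3 UTX TCD libraries were below all WT libraries, replicate 2 by far the most. The mean was 154 ± 48.4 CPM in UTX TCD and 258 ± 6.62 CPM in WT (SD, n = 3 each), a change of -40.4% or -0.75 ± 0.22 on the log2 scale (edgeR adjusted p = 0.021). Without UTX TCD replicate 2 it was -0.51. The window around its start site is shown as that of the member that fell most, with an E-box (CACGTG, a letter run that reads the same on both strands) in capitals at position -6, and its exons overlap Gm10390 on the other strand.
Rbm19 (chr5:120116263-120116562, plus strand): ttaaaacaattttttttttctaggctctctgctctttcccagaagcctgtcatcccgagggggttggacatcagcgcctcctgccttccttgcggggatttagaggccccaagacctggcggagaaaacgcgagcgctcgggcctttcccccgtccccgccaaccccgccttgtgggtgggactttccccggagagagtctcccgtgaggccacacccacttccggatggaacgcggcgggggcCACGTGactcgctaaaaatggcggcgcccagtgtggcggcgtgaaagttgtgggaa

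E-box letters were present in 6 of the 55 members with a window (10.9%), against 12.7% of the table's genes. Counted by window, they were in 11.1% of the members' 63 windows and in 7.15% of all windows. Rbm34 and Rbm28, also nucleolar by their yeast counterparts, were at -0.29 ± 0.10 (adjusted p = 0.042, lower) and -0.21 ± 0.11 (adjusted p = 0.095, not called). Rbm8a encodes Y14, a core subunit of the exon junction complex that splicing leaves on mRNA. It had 422, 377 and 426 CPM in UTX TCD libraries and 497, 478 and 475 CPM in WT libraries (-0.24 ± 0.08, adjusted p = 0.034). Its near-identical copy Rbm8a2 was at -0.38 ± 0.18 and did not pass (adjusted p = 0.082), and reads of this pair may be misplaced between them. Rbm26 had the value nearest to 0 of all members, -0.07 ± 0.08. The 3 lower members of this group, Rbm19 among them, lost their calls when any 1 WT library was left out, and Rbm34 also without UTX TCD replicate 3.

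Members of the Sm and LSm family and of the snRNP particles were all below 0, and few passed. Among 5 Sm and LSm proteins, Snrpf, a member of the Sm ring, was lower, against 27.0% of all genes tested. Snrpf (chromosome 10, 93583029 to 93589706) had 45.1, 40.6 and 51.2 CPM in UTX TCD libraries, against 61.8, 57.8 and 69.0 CPM in WT libraries, -0.46 ± 0.13 on the log2 scale (edgeR adjusted p = 0.021), with no overlap. Its exons overlap Ccdc38 and 4933408J17Rik on the other strand. The Sm proteins Snrpb and Snrpd3 were at -0.26 ± 0.12 and -0.20 ± 0.10, and Lsm3, of the U6 ring, at -0.24 ± 0.12. Lsm12, placed in this group by its family and not as a ring protein, was at -0.16 ± 0.09. None of these 4 passed (adjusted p = 0.084, 0.095, 0.084 and 0.13). The genotypes did not overlap in any of them, which was so in 85.8% of all genes tested. Snrpa and Snrpc encode proteins of the U1 snRNP, the particle that recognises the 5' splice site. These 2 genes were at -0.22 ± 0.10 and -0.13 ± 0.09 and did not pass. Lower members of the Sm and LSm group numbered 2 when any 1 UTX TCD library was left out (22.4% to 35.3% of all genes). They numbered 0 when any 1 WT library was left out (8.47% to 13.1%).

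In the U2 group, whose SF3A and SF3B complexes hold the branch site, 2 of 5 members were lower, against 27.0% of all genes tested. Sf3b5, the smallest SF3B subunit, had 191, 166 and 217 CPM in UTX TCD libraries, against 250.2, 244 and 257 CPM in WT libraries (-0.39 ± 0.11, edgeR adjusted p = 0.019). Snrpa1, the U2 A' protein, had 358, 265 and 331 CPM in UTX TCD and 414, 421 and 402 CPM in WT libraries (-0.37 ± 0.12, adjusted p = 0.027). In both, every UTX TCD library was below every WT library, replicate 2 lowest, and exons of Snrpa1 overlap Gm45213 on the same strand. Sf3a2, Sf3b3 and Sf3b4 were at -0.20 ± 0.11, -0.20 ± 0.14 and -0.29 ± 0.17 and did not pass. When any 1 WT library was left out there was no lower U2 member, where 8.47% to 13.1% of all genes were lower.

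Of 7 members around the U4/U6.U5 tri-snRNP and the Prp19 complex, which activate the spliceosome, Rbmx2 alone was lower, against 27.0% of all genes tested. Rbmx2, whose yeast counterpart Ist3 binds the activated spliceosome, had 66.6, 52.5 and 59.1 CPM in UTX TCD libraries, against 72.7, 76.9 and 73.4 CPM in WT libraries (-0.32 ± 0.12, edgeR adjusted p = 0.040). Prpf31, a tri-snRNP protein, did not pass at -0.34 ± 0.14 (adjusted p = 0.054), nor did Prpf19, a ubiquitin ligase, at -0.26 ± 0.12 (adjusted p = 0.087), nor Ddx23, the helicase that displaces U1 from the 5' splice site, at -0.25 ± 0.11 (adjusted p = 0.077). Prpf4, Snrnp40 and Prpf38a were at -0.24 ± 0.12, -0.21 ± 0.10 and -0.16 ± 0.11. Members called lower here numbered 3 and 4 without UTX TCD replicates 1 and 2 (34.5% and 35.3% of all genes) and 3 with gap-centred scaling (37.6%). The count was 0 without UTX TCD replicate 3 (22.4%) and when any 1 WT library was left out (8.47% to 13.1%). Upper-quartile scaling (17.6%), RLE scaling (838 lower genes) and DESeq2 (928 lower genes) gave 0. With the replicate block Rbmx2 was not called (adjusted p = 0.057) and Prpf31 was (adjusted p = 0.044).

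Srsf2 was the only SR protein among the members. This family binds exonic enhancers and recruits U1 and U2. Srsf2 had 1059, 742 and 1099 CPM in UTX TCD libraries and 1122, 1189 and 1135 CPM in WT libraries, -0.25 ± 0.15 on the log2 scale, and did not pass (edgeR adjusted p = 0.14). The groups did not overlap, but replicates 1 and 3 of UTX TCD lay just under the WT range. Its exons overlap Mfsd11 and Mettl23 on the other strand.

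Helicases of splicing, snRNP assembly and mRNA export numbered 6, and 1 of them was lower, against 27.0% of all genes tested. Ddx20 encodes Gemin3, part of the SMN complex that loads Sm rings onto snRNA. It had 175, 143 and 187 CPM in UTX TCD libraries, against 207, 219.6 and 216 CPM in WT libraries (-0.35 ± 0.11, edgeR adjusted p = 0.028), with no overlap. Dhx16 and Dhx38, whose yeast counterparts Prp2 and Prp16 drive the steps of splicing, were at -0.21 ± 0.10 and -0.24 ± 0.10. Ddx39 and Ddx19a, which act in mRNA export, were at -0.31 ± 0.14 and -0.26 ± 0.11, and Ddx41 was at -0.23 ± 0.11. None of these 5 passed with all libraries (adjusted p = 0.088, 0.054, 0.077, 0.066 and 0.081). Without UTX TCD replicate 2 all 6 were lower, where 35.3% of all genes were, and without UTX TCD replicate 1 it was 2 (34.5%). It was 0 when any 1 WT library was left out (8.47% to 13.1% of all genes). Gap-centred scaling gave 4 (37.6%) and upper-quartile scaling 0 (17.6%).

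The hnRNP proteins coat pre-mRNA, and 3 of 6 were lower, against 27.0% of all genes tested. Hnrnpab, the most abundant member per kilobase of exon (1156 CPM per kb in UTX TCD and 1591 CPM per kb in WT), had 3686, 2686 and 3272 CPM in UTX TCD libraries, against 4230.1, 4041 and 5008 CPM in WT libraries. Hnrnpll, which in activated T cells promotes the skipping of variable Ptprc exons, had 661, 475 and 595 CPM in UTX TCD and 754, 791 and 704 CPM in WT libraries. Rbmx, the X-linked gene of hnRNP G, had 306, 212 and 291 CPM in UTX TCD and 360.1, 356 and 363 CPM in WT libraries. No library of one genotype reached the other in any of the 3, which was so in 85.8% of all genes tested. Replicate 2 was lowest among UTX TCD each time. Log2 fold changes were -0.46 ± 0.14 for Hnrnpab (edgeR adjusted p = 0.023), -0.38 ± 0.13 for Hnrnpll (adjusted p = 0.032) and -0.42 ± 0.14 for Rbmx (adjusted p = 0.031). Hnrnpa1, a repressor of splice sites, had 1262, 1122 and 1145 CPM in UTX TCD and 1319, 1276 and 1287 CPM in WT libraries and did not pass (-0.14 ± 0.08, adjusted p = 0.14), as Hnrnpc and Hnrnpdl did not at -0.22 ± 0.09 and -0.17 ± 0.12. The hnRNP group had 0 lower members when any 1 WT library was left out (8.47% to 13.1% of all genes). It had 2 without UTX TCD replicate 3 (22.4% of all genes), where Hnrnpll did not pass. Exons of Hnrnpab overlap Phykpl on the other strand.

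Cleavage and polyadenylation factors, which cut the 3' end of the transcript, were represented by Cpsf2 and Cstf1. They were at -0.11 ± 0.08 and -0.21 ± 0.10 on the log2 scale and did not pass (edgeR adjusted p = 0.20 and 0.079). The groups did not overlap for either gene, which was so in 85.8% of all genes tested. Cpsf2 had 466, 429 and 468 CPM in UTX TCD and 480.0, 501 and 489 CPM in WT libraries, a narrow difference.

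**Figure D5:**
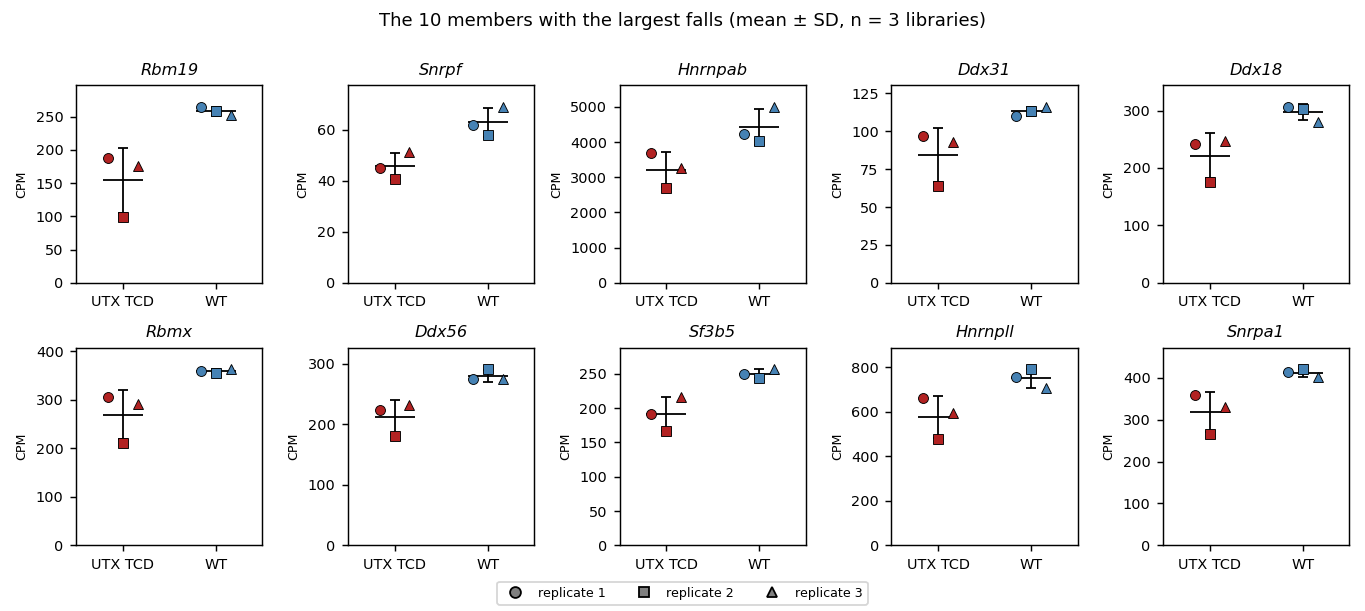
CPM by library for the 10 called members with the largest falls and no overlap, UTX TCD left of WT in each panel; bars are the mean and SD of 3 libraries and axes start at 0. Replicate 2 is the lowest UTX TCD library in all 10, and the change of Rbm19, -40.4%, is the largest.

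Helicases of ribosome assembly and the nucleolus formed the largest role group, with 13 members, all below 0 and 4 of them lower (median log2 fold change -0.34). Over all genes tested, 27.0% were lower, so the share of lower helicases was near that of the whole table. Ddx56 had 224, 180.3 and 233 CPM in UTX TCD libraries, against 275, 292 and 275 CPM in WT libraries, -0.40 ± 0.11 on the log2 scale (edgeR adjusted p = 0.018). Ddx18 had 242, 176 and 247 CPM in UTX TCD and 307, 303 and 281 CPM in WT libraries (-0.42 ± 0.14, adjusted p = 0.029). Ddx31 had 97.0, 63.8 and 92.7 CPM in UTX TCD and 110.3, 113 and 116 CPM in WT libraries (-0.42 ± 0.16, adjusted p = 0.043). In each of these the genotypes were separate and replicate 2 was well under the other UTX TCD libraries. Ddx47 differed less, with 358, 311 and 356 CPM in UTX TCD and 416, 418 and 403 CPM in WT libraries (-0.27 ± 0.09, adjusted p = 0.028). Ddx21, a nucleolar helicase that also acts in RNA polymerase I and II transcription, was the most abundant of the group per kilobase of exon, at 506 CPM per kb in UTX TCD and 610 CPM per kb in WT. Its CPM were 2978, 2139 and 2743 in UTX TCD and 3217, 3182 and 3072 in WT libraries, and it did not pass (-0.27 ± 0.13, adjusted p = 0.081). Dhx37, Dhx33, Ddx51 and Ddx27 were at -0.37 ± 0.15, -0.37 ± 0.15, -0.36 ± 0.14 and -0.34 ± 0.14, and did not pass (adjusted p = 0.056, 0.062, 0.051 and 0.056). Ddx54, Ddx10, Ddx55 and Ddx52 were at -0.21 ± 0.09, -0.18 ± 0.09, -0.16 ± 0.10 and -0.14 ± 0.08. Only Ddx55 had overlapping groups in this set of 13, where 85.8% of all genes tested had no overlap. Lower members numbered 9 without UTX TCD replicate 1 or 2 (34.5% and 35.3% of all genes). They numbered 0, 0 and 1 without WT replicates 1, 2 and 3 (9.69%, 8.47% and 13.1%). Gap-centred scaling gave 9 (37.6%), upper-quartile scaling 2 (17.6%) and the replicate block 8, with 1026 genes lower in all.

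Among 7 helicases of translation, RNA decay and other roles, 2 were higher and 2 lower, against 41.1% and 27.0% of all genes tested. Ddx43, a helicase best known from testis and tumours, had 7.35, 10.8 and 8.85 CPM in UTX TCD libraries, against 3.17, 3.69 and 4.09 CPM in WT libraries (1.30 ± 0.26, edgeR adjusted p = 0.0073). Ddx43 rests on 32, 34 and 36 counts in the WT libraries, and its exons overlap 4930542C12Rik on the other strand. Dhx40 had 153, 187 and 162 CPM in UTX TCD and 111, 121 and 121 CPM in WT libraries (0.51 ± 0.10, adjusted p = 0.0071). Both calls held whichever library was left out and with every alternative scaling and tool, with log2 fold changes of 1.15 and 0.41 without UTX TCD replicate 2. Besides them, Celf5 was the only member whose call held in all 14 alternatives. Dhx30, which acts on mitochondrial ribosomes, had 330.2, 262 and 317 CPM in UTX TCD and 392, 384 and 373 CPM in WT libraries (-0.34 ± 0.10, adjusted p = 0.025). Its exons overlap Smarcc1 on the other strand and Gm27855 on the same strand. Ddx1, a subunit of the tRNA ligase complex, had 851, 677 and 775 CPM in UTX TCD and 973, 950.3 and 914 CPM in WT libraries (-0.30 ± 0.10, adjusted p = 0.031). Neither of the lower genes passed when any 1 WT library was left out, and Ddx1 did not without UTX TCD replicate 3. Ddx3x, an X-linked helicase of translation initiation, followed Hnrnpab and Ddx21 in level per kilobase (410 CPM per kb in UTX TCD and 513 CPM per kb in WT). It had 2548, 1769 and 2166 CPM in UTX TCD and 2855, 2724 and 2547 CPM in WT libraries, overlapped by the thinnest margin and did not pass (-0.33 ± 0.14, adjusted p = 0.059). Ddx28 and Dhx29 were at -0.28 ± 0.12 and -0.23 ± 0.12 and did not pass. With gap-centred scaling 4 of these 7 were lower, without UTX TCD replicate 3 it was 1, and with the replicate block or without UTX TCD replicate 1 it was 3, while upper-quartile scaling left 1.

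Other genes of RNA processing, a list of 145 outside the family prefixes, had 39 with a row, of which 4 were higher and 8 lower, where 41.1% and 27.0% of all genes tested were. Of the 39, 35 lay below 0, against 53.5% of all genes, and the median log2 fold change was -0.20, against -0.15 over all genes. Tia1, a splicing and stress granule protein, had 186, 203 and 178 CPM in UTX TCD libraries, against 131, 124 and 118 CPM in WT libraries (0.61 ± 0.09, edgeR adjusted p = 0.0027). Ptbp3, a paralog of the splicing repressor Ptbp1, had 1528, 1515 and 1349 CPM in UTX TCD and 1128, 1153 and 1075 CPM in WT libraries (0.39 ± 0.08, adjusted p = 0.0089). In both, every UTX TCD library was above every WT library. Magohb, which pairs with the Rbm8a protein in the exon junction complex, had 54.7, 46.1 and 59.8 CPM in UTX TCD and 83.3, 87.6 and 80.1 CPM in WT libraries (-0.64 ± 0.12, adjusted p = 0.0058). Gemin6, of the SMN complex, had 56.8, 50.5 and 64.9 CPM in UTX TCD and 95.8, 102 and 84.9 CPM in WT libraries (-0.72 ± 0.13, adjusted p = 0.0049). The calls of these 4 genes held in all 14 alternatives. Pspc1, a paraspeckle protein, was lower at -0.41 ± 0.10 (adjusted p = 0.013; 0.056 without WT replicate 2).

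Proteins of 6 listed genes, a subset chosen after its values were seen, prepare Sm proteins for the snRNP or load them. Of these genes 4 were lower and 2 were not called, with log2 fold changes between -0.72 and -0.22. In the whole list 8 of 39 genes were lower, and 27.0% of all genes tested were. Since the subset was picked by its values, neither its count of calls nor its signs are a result about these genes. All 6 lay below 0, and the 35 of 39 genes below 0 in the whole list include them. Smn1, the gene of the SMN protein, had 223, 172 and 222 CPM in UTX TCD libraries, against 288, 273 and 271 CPM in WT libraries (-0.43 ± 0.12, edgeR adjusted p = 0.017), a call lost without WT replicate 1 or 2 (adjusted p = 0.064 and 0.059). Prmt5, which methylates Sm proteins, and its cofactor Wdr77 were lower, at -0.35 ± 0.12 (adjusted p = 0.031) and -0.57 ± 0.15 (adjusted p = 0.017). Clns1a and Gemin5 were at -0.22 ± 0.09 and -0.27 ± 0.12 and did not pass (adjusted p = 0.052 and 0.067). Lower genes of the whole list numbered 19, 17 and 8 without UTX TCD replicates 1, 2 and 3 (34.5%, 35.3% and 22.4% of all genes). They numbered 3, 2 and 5 without WT replicates 1, 2 and 3 (9.69%, 8.47% and 13.1%) and 18 with gap-centred scaling (37.6%). The list had 2 higher genes without WT replicate 1 or 2 (19.6% and 17.6% of all genes).

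The order of levels per kilobase of exon changed little between genotypes. Hnrnpab, Ddx21 and Ddx3x ranked highest in both, in that order, followed by Snrpb and Hnrnpa1, which traded places (368 and 373 CPM per kb in UTX TCD, 439 and 411 CPM per kb in WT). Of the 68 members 20 kept their rank, and none moved by more than 9 places. Exonic lengths are from GENCODE M21, which may differ from the annotation behind the counts, so levels of different genes are set side by side only roughly.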

How the data were processed

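The authors deposited a table of raw read counts per gene symbol for 6 libraries, 3 UTX TCD and 3 WT. The submitters' processing notes name FastQC, HISAT2, HTSeq and mm10. Roles, versions and strand setting are not stated in the labels. Every column was used, and no 2 libraries agreed within sampling noise. The members and gene lists were chosen with earlier results of these data known.

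Genes were kept with edgeR's filterByExpr (minimum count 10, minimum total 15), leaving 4118 of 4162, and libraries were scaled by TMM. The genotypes were compared with edgeR's quasi-likelihood test (edgeR 4.0.16, R 4.3.3), and p-values were adjusted by Benjamini and Hochberg's method over all genes tested, with a threshold of 0.05. Standard errors are the log2 fold change over the square root of its F statistic. The same steps were also run on simulated counts in which most genes were unchanged and the rest changed by 2-fold or more. This table holds few genes near 0, so that run does not bear on its scaling or on the small falls reported here. Alternatives were RLE, upper-quartile and gap-centred scaling, DESeq2 1.42.0, limma-voom (limma 3.58.1), no low-count filter, a replicate block, each library left out, and p-values adjusted as if every annotated protein-coding gene had been tested. Gap-centred scaling shifts fold changes so that their emptiest point, at 0.04, lies at 0. Levels per kilobase and gene positions use GENCODE M21 (GRCm38).

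Named members were Srsf2, Hnrnpa1, Hnrnpll, Ddx58, Dhx58, Ddx60, Ddx3x and Ddx21, the called members with the 10 largest rises (8 qualified) and 10 largest falls and no overlap, and up to 4 called members a role by smallest p. Other members are given by value for completeness of their role.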

Additional observations from a re-analysis of the deposited data

How the results depend on the processing

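Leaving out 1 library gave 5 to 9 higher and 0 to 34 lower members, and over all genes 730 to 1824 higher and 351 to 1458 lower. Upper-quartile scaling gave 10 lower members and 725 lower genes, and gap-centred scaling 31 lower members and 1550 lower genes. The cause was not tested. Higher genes were 60.4% of all calls, 51.5% after gap-centred scaling and 70.6% after upper-quartile scaling. Rbm26 turned to 0.0037 on the log2 scale with upper-quartile scaling, and no other member changed sign in any alternative. Adjusting as if every annotated protein-coding gene had been tested left 3 higher and 0 lower members, and 630 higher and 296 lower genes, since more tests enter the adjustment. The members' median log2 fold change stayed between -0.29 and -0.14. The replicate block gave 7 higher and 21 lower members, 15 of these among the 17, and 1607 higher and 1026 lower genes. Libraries with the same number correlated in their deviations at 0.306, -0.285 and 0.193, and were not taken as pairs. Calls of 4 higher members (Celf5, Ddx43, Ddx60 and Dhx40) and of 0 lower members held with each library left out.

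Celf4, Celf5, Ddx43 and Ddx60 rest on few WT reads. Column totals cover the listed genes only, so CPM is relative to them and not to a whole library.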
